A study of Mus musculus with 192 samples.

Results

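The comparison described here is that of spleens from Nrf2-knockout (GC_KO) and wild-type (GC_WT) mice kept on the ground, 6 mice of each genotype, 1 library a mouse, chosen from the 192 libraries of the series by their tissue, condition and genotype labels. All 12 mice were males labelled as C57BL/6 and 12 weeks of age, both genotypes on the C57BL/6J background according to the methods, housed singly as the ground control (GC) of a space flight, and no further allele is named for them. The methods give 12 weeks as the age of the flight mice when ready for launch. The ground control simulated the whole flight before dissection, so the labelled age may not be that at sampling. The knockout mice carried the Nfe2l2 tm1Ymk allele. Only Nrf2-KO mice judged free of a liver shunt were used, so the GC_KO mice were a selected group. The methods describe that screen, made with ketamine and xylazine, for the mice prepared for flight, and do not say how the ground mice were screened. Flight (FL) spleens of the same 2 genotypes, 6 FL_WT and 5 FL_KO mice, served as other animals in which the ground differences could be looked up, and they shared 1 fit with the ground spleens, so they also entered the estimate of spread and the filter on low counts behind the ground calls. With the 12 ground libraries alone, 141 genes were called, 125 of them shared with the fit reported here, and 8 of the 50 named genes lost their call. Nfe2l2 encodes Nrf2, a bZIP transcription factor that Keap1 holds in check and that, when released, pairs with small Maf proteins on antioxidant response elements. Its best known targets make and recycle glutathione, conjugate and reduce reactive compounds, supply NADPH and handle haem and iron. In the spleen, red pulp macrophages clear old red cells and recycle their haem iron, white pulp holds B and T cells, and in mice the red pulp also forms red cells and platelets.

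Each ground library held between 13110740 and 13541914 expected counts. The 12 libraries carried the markers of spleen, with the B cell receptor chain Cd79a at 801 to 1090 TPM (transcript share scaled by length), the T cell gene Cd3g at 102 to 126 TPM and the red pulp macrophage factor Spic at 77.8 to 127 TPM. Of the pancreas genes, which an adjoining organ could bring, Ins2, Sst and Clps were at 0 in all 12 libraries, and only 2 of the 25 listed passed the filter on low counts. The distance of a ground library from the median of its group, the root mean square difference of log2(TPM + 1), ran from 0.279 to 0.353, and no ground library stood apart.

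Of 16170 genes tested, 182 (1.13%) passed an adjusted p of 0.05, below which a gene is said to be called, 95 of them higher (0.588%) and 87 lower (0.538%) in GC_KO. The called genes included the glutathione transferases Gstm1, Gsta3, Gsto1 and Mgst1, all lower in GC_KO, whereas most listed Nrf2 targets were not called. The differences were mostly small, with a median size of 0.60 on the log2 scale, 77 called genes under 0.5 and 58 at 1 or above, while the median of all genes tested was 0.00. The 6 GC_KO values did not overlap the 6 GC_WT values for 132 of the 182 called genes, against 1.47% of all genes tested. A total of 120 called genes stayed called whichever of the 12 ground mice was left out. DESeq2 called 295 genes on the same counts and limma 89 on log2(TPM + 1). Levels below are CPM (counts relative to library size) scaled by TMM factors, and fold changes are GC_KO over GC_WT as log2 with the standard error of the fit.

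Nfe2l2 itself (chr2:75675513-75704641, minus strand, GRCm38) was lower in the GC_KO spleens, but by little. Its level had a lowest value of 96.8, a median of 103 and a highest value of 110 CPM in GC_WT, and 79.7, 88.1 and 90.2 CPM in GC_KO. The groups did not overlap, and the log2 fold change was -0.25 ± 0.04 with an adjusted p of 0.00039. The same small difference was seen in flight, where it was -0.26 with an adjusted p of 0.00055. Gene-level counts take in reads from every part of the gene that the allele leaves in place, so they are a weak check of the knockout, and which exons the remaining reads came from was not tested.

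The difference was smaller in spleen than in each of the other tissues. In the other 8 tissues of the ground mice, Nfe2l2 was called lower with log2 fold changes between -1.13 in kidney and -1.81 in cerebrum. In liver, for example, unscaled levels had a median of 68.8 CPM in GC_WT and 26.1 CPM in GC_KO, and in thymus 60.6 and 26.4 CPM. In spleen the same unscaled measure was 101 and 88.0 CPM, so the GC_KO spleens held more Nfe2l2 reads than any other GC_KO tissue. The difference between tissues was tested with each mouse's spleen value set against its own value in the other tissue, over 8 pairs of tissues. In the 6 pairs with 6 mice of each genotype the genotype difference was smaller in spleen by 0.97 to 1.58 on the log2 scale, with p = 0.0022 in each by a two-sided exact permutation test, the smallest p that test can give, and p = 0.0029 after Benjamini-Hochberg adjustment. Kidney and mandible had 3 mice of each genotype, where the exact permutation test cannot go below p = 0.10, and gave differences of 0.88 and 1.41 in the same direction. Thymus libraries were depleted of ribosomal RNA rather than selected for poly(A), unlike the others.

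**Figure D1:**
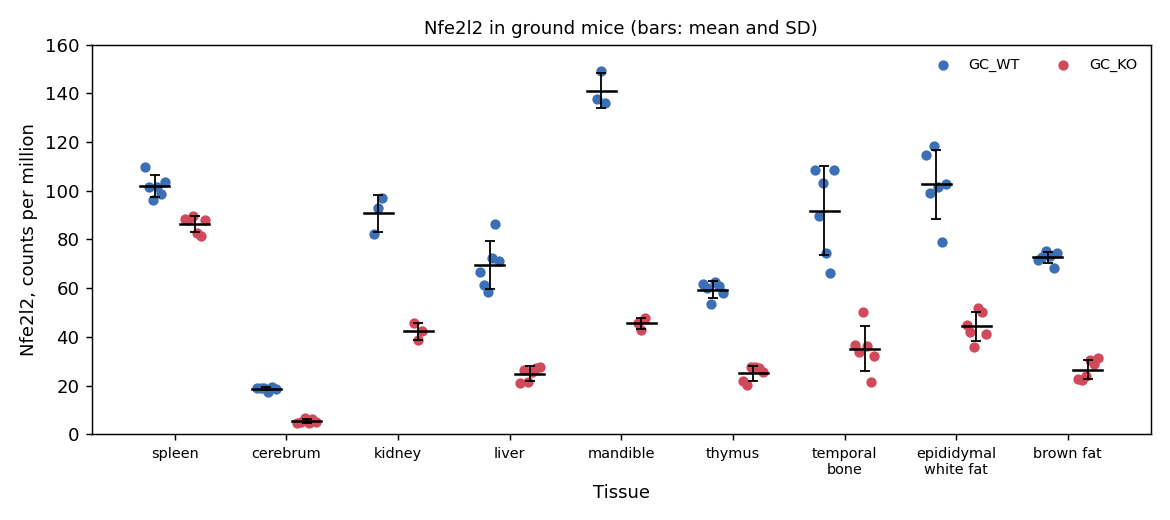
Nfe2l2 in CPM (linear axis, unscaled) in each ground mouse of 9 tissues, points for mice and bars for mean and SD. GC_KO spleens sit at 81.4 to 89.7, just under the GC_WT spleens at 96.3 to 110, while in each of the other 8 tissues the groups are separate, with the GC_KO median under 0.5 of the GC_WT median.

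The 9 lists on the Nrf2 system and its targets held 185 genes, of which 163 were tested. Of these, 7 were called lower, the deleted gene Nfe2l2 among them, and 0 higher in GC_KO by edgeR. Of all genes tested, 0.538% were called lower and 0.588% higher. DESeq2 called 8 of the list members lower and 2 higher. Their median log2 fold change was 0.00, the same as that of all genes tested, with 83 members above and 80 below 0. Of the 163 members, 35 had an unadjusted p under 0.05, a larger share than the 10.8% of all genes tested. By the same test, 35 list members were called lower in liver, 33 in epididymal white fat, 27 in kidney and 13 in interscapular brown fat. Thymus had 11, mandible 5, cerebrum 3 and temporal bone 3, and Nfe2l2 is among those called lower in each tissue. Members called higher were 3, 3, 3, 1, 2, 1, 2 and 0 in that order. The share of all genes called in either direction was 2.64%, 2.74%, 1.61%, 2.14%, 3.81%, 0.244%, 0.836% and 0.198% in the same order. These tissues came from the same ground mice, but kidney and mandible from only 3 of each genotype. Whether the lists differed between tissues was not tested.

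Glutathione transferases, which join glutathione to reactive compounds, held 4 of the 7 called members, out of 18 tested. Gstm1 (chr3, adjusted p 3.5e-08) had a lowest value of 32.0, a median of 36.4 and a highest value of 43.1 CPM in GC_WT, and 17.6, 20.1 and 22.1 CPM in GC_KO. The groups were far apart, at a log2 fold change of -0.86 ± 0.07, and in flight the value was -0.99. Gsta3 ran from 20.95 to 30.1 CPM in GC_WT, with a median of 25.4, and from 12.97 to 17.6 CPM in GC_KO, with a median of 16.1. Mgst1, a transferase of membranes, ran from 16.6 to 21.7 CPM in GC_WT and from 11.02 to 15.4 CPM in GC_KO. Gsto1, of the omega class, was the tightest, at 28.0 to 30.4 CPM in GC_WT and 20.6 to 23.8 CPM in GC_KO. The log2 fold changes were -0.70 ± 0.14 for Gsta3, -0.52 ± 0.10 for Mgst1 and -0.37 ± 0.05 for Gsto1, and all 4 transferases were also called lower in flight. None of the 4 overlapped between genotypes, and each was called in all 12 fits that left out 1 ground mouse. Other members did not follow. Gstp1 was at -0.01 ± 0.05, Gsta4 at 0.05 ± 0.16 and Gstm5 at 0.59 ± 0.18 with an adjusted p of 0.16, and the list's median was 0.03 with 11 members above 0. Gstm1 had reads that RSEM split between genes in 10 of the 12 libraries, so part of its level rests on that split.

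The remaining called members were Nfe2l2, described above, Osgin1 and Btrc. Osgin1, a growth inhibitor induced by oxidative stress, was lower at -0.38 ± 0.09, with GC_WT at 12.6 to 17.7 CPM, GC_KO at 9.90 to 12.6 CPM and an adjusted p of 0.027. The groups touched, and the call was lost in 6 of the 12 fits that left out a ground mouse. Btrc, a subunit of the ubiquitin ligase that marks Nrf2 for degradation apart from Keap1, was lower at -0.45 ± 0.07 without overlap, with medians of 25.9 and 18.1 CPM. The Nrf2 partners Keap1, Bach1, Mafg and Mafk had log2 fold changes of 0.03, -0.02, 0.05 and 0.06, with none called.

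The textbook targets outside the transferases were not called. Nqo1, the quinone reductase often used as a readout of Nrf2, was near the limit of detection in spleen at 0.831 to 1.58 CPM in GC_WT and 0.838 to 2.41 CPM in GC_KO, and its log2 fold change was 0.33 ± 0.22. In liver and kidney Nqo1 was called lower, at -2.05 and -1.79. The ligase subunits of glutathione synthesis, Gclc and Gclm, were at -0.09 ± 0.04 and 0.15 ± 0.09, and the cystine carrier subunit Slc7a11 was at -0.14 ± 0.18. Hmox1, which breaks haem open, was abundant at 301.5 to 645.7 CPM over the 12 mice, with overlapping groups and a log2 fold change of -0.19 ± 0.15. Thioredoxin reductase Txnrd1 came closest, at -0.16 ± 0.04 with an adjusted p of 0.074, with medians of 64.6 and 57.6 CPM. Sulfiredoxin Srxn1 was at -0.01 ± 0.11, and the NADPH enzymes G6pdx, Pgd and Tkt were at -0.06, -0.02 and 0.01. Malic enzyme Me1 was at -0.36 ± 0.12 with an adjusted p of 0.20. Ferritin subunits Fth1 and Ftl1 were at -0.08 and -0.14, and the iron exporter Slc40a1 was at -0.18. Of the 23 tested genes of haem breakdown and iron handling, 0 were called by edgeR, DESeq2 or limma, and 5 had an unadjusted p under 0.05. A p that misses the threshold does not show that these levels were alike.

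**Figure D2:**
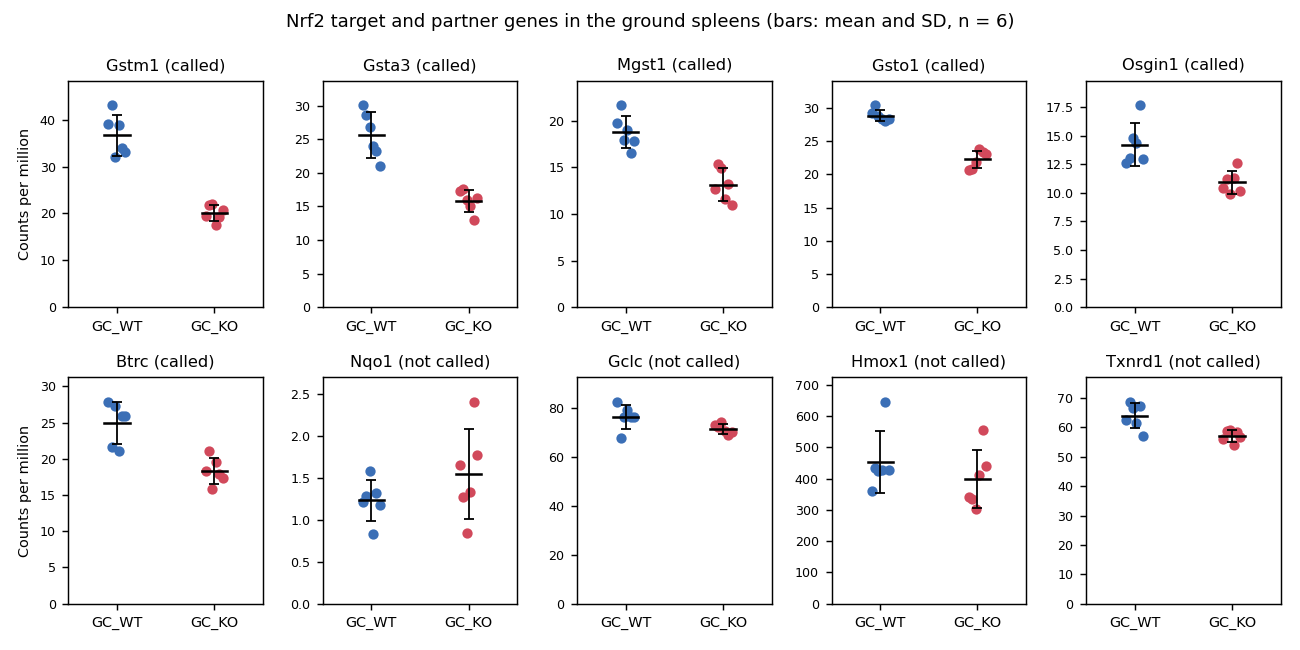
CPM (linear axes from 0) of 6 called and 4 uncalled genes of the Nrf2 lists in the 12 ground spleens, points for mice and bars for mean and SD. Gstm1, Gsta3, Mgst1, Gsto1 and Btrc show GC_KO wholly under GC_WT, and Nqo1, Gclc, Hmox1 and Txnrd1 overlap.

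Promoters of 3 of the 4 called transferases and of the uncalled Gclm, for comparison, are shown because antioxidant response elements are the sites through which Nrf2 acts. The window is 250 bases before to 50 after the start site (RefSeq, GRCm38.p6), written 5′ to 3′ along the gene's strand, and capitals mark the letters TGACNNNGC or their reverse complement GCNNNGTCA, the 9 bases searched on both strands.
Gsta3 promoter, chr1:21240335-21240634, plus strand: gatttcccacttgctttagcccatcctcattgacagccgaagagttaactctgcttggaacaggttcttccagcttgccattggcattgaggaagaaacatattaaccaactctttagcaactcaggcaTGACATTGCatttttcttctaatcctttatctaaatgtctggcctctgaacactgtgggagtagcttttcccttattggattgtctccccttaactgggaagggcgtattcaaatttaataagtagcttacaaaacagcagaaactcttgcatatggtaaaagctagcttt
Mgst1 promoter, chr6:138140277-138140576, plus strand: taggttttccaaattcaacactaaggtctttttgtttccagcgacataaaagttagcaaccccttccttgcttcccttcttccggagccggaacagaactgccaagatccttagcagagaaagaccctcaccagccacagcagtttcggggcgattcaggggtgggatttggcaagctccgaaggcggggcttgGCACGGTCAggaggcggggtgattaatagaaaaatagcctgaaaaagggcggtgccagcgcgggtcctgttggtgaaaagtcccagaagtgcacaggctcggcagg
Gstm1 promoter, chr3:108017924-108018223, minus strand: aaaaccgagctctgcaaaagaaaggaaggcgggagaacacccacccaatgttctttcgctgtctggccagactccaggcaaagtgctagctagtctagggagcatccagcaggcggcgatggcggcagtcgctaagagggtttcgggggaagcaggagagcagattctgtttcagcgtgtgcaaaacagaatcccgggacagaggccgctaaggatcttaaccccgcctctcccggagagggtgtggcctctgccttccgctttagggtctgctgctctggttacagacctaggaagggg
Gclm promoter, chr3:122245307-122245606, plus strand: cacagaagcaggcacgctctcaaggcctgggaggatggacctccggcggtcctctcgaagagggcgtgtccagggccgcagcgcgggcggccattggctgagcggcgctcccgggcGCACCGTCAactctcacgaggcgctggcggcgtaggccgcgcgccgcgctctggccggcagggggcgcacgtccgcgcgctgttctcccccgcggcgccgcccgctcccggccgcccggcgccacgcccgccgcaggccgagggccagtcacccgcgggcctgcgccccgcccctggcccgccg
The Gsta3 window held TGACATTGC from base -121 and the first Mgst1 window GCACGGTCA from base -56, counted from the start site. Neither Gstm1 window, nor those of Gsto1 and Osgin1, held these letters, which says nothing of other windows. The uncalled Gclm held GCACCGTCA from base -134. The letters stood in 12.4% of all 32851 windows and in 1 or more windows of 16.8% of tested genes, 23.1% of the 52 matched genes called lower and 27.9% of the 61 matched genes called higher. A match is a description of letters and not a binding site.

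The called genes lay together along the chromosomes. Cut into segments of 10 Mb by gene start, a grid chosen after the calls had been seen, the genome held 276 segments with tested genes, and 199 of them held no called gene. In contrast, 10 segments with 5 or more called genes held 88 of the 182, which is 48.4% of the calls on 5.25% of the tested genes. In these segments 10.4% of tested genes were called, against 0.614% elsewhere. In flight mice, whose calls did not choose the segments, 9.08% of the same genes were called, against 0.718% elsewhere. Both contrasts compare mice of the same 2 lines, and the segments were given no test. Whether the lines differ in sequence outside Nfe2l2 was not tested. Of the 88 called genes in the segments, 69.3% were called in the same direction in at least 1 other tissue of the same ground mice, and 45.7% of the 94 others were.

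**Figure D3:**
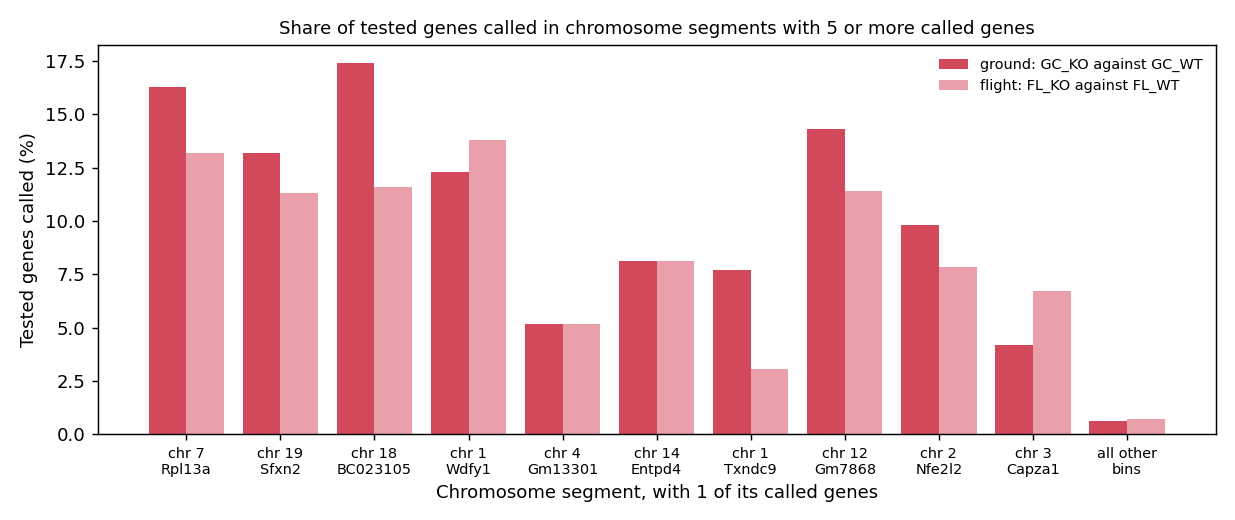
Percent of tested genes called (linear axis from 0) on the ground and in flight in the 10 chromosome segments that held 5 or more ground calls, each named by its chromosome and a called gene, and in all other segments together. Ground bars run from 4.2% to 17.4% in the segments and stand at 0.614% elsewhere.

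The segment with the most calls was on chromosome 7 between 40 and 50 Mb, with 21 of 129 tested genes called, 12 higher and 9 lower. Rpl13a (chr7, ribosomal protein of the large subunit) fell from a median of 960 to 682.5 CPM without overlap, at -0.48 ± 0.04. Its reads were split with other genes in all 12 libraries, as is usual for a ribosomal protein with many pseudogenes. Lmtk3, a kinase, was at 4.97 to 6.10 CPM in GC_WT and 0.219 to 0.527 CPM in GC_KO, a log2 fold change of -3.93 ± 0.23. Klk4, a kallikrein protease, went the other way, from 0 to 0.301 CPM in GC_WT to 3.09 to 8.79 CPM in GC_KO. Aldh16a1 and Ntn5 were higher at 0.42 ± 0.05 and 1.19 ± 0.13, and the noncoding Gm31597 was lower at -3.20 ± 0.32. Aldh16a1 had a log2 fold change of 0.13 in flight and was not called there, and other tissues called it higher in 2 and lower in 2.

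Chromosome 19 held 14 called genes of 106 between 40 and 50 Mb, Gsto1 and Btrc among them. Sfxn2 and Sfxn3, sideroflexin carriers of the mitochondrial membrane, were lower at -1.20 ± 0.07 and -0.77 ± 0.06. Sfxn2 had 17.2 to 19.2 CPM in GC_WT and 6.92 to 8.28 CPM in GC_KO, and was called lower in 6 of the other 8 tissues. Neurl1a was higher at 1.45 ± 0.15. Cdc42bpg, a kinase of the actin cytoskeleton that lies on the same chromosome outside the segment, was lower at -1.33 ± 0.05, with medians of 74.0 and 29.6 CPM.

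On chromosome 18 between 60 and 70 Mb, 12 of 69 tested genes were called, 5 higher and 7 lower. BC023105 was higher there, with medians of 0.916 and 4.75 CPM. On chromosome 1, 8 of 65 genes between 70 and 80 Mb were called, and Wdfy1, which promotes Toll-like receptor signalling in endosomes, rose from a median of 32.6 to 52.8 CPM at 0.70 ± 0.05. Another 5 of 65 genes were called between 30 and 40 Mb of the same chromosome. Txndc9 was among them and was singled out after its values were seen, since its counts were lower at -0.30 ± 0.05 while its TPM moved the other way, the only called gene for which they did.

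Several segments held near copies, where the split of reads between genes leaves each level uncertain. Such copies count as separate genes in the calls and shares of each segment. On chromosome 4 between 40 and 50 Mb, Gm13301 had 1341 reads over the GC_WT mice and 3 reads in a single GC_KO mouse, a ratio of 453 with a 95% exact counting interval of 155 to 2200. Its neighbour Gm10600 had 471 reads against 1, a ratio of 477 with an interval of 85.2 to 18900, and Gm17167 had 546 against 3. Gm5859, Gm17081 and Gm2564 were lower as well. The seventh called gene of the segment, Tmem8b, is named for completeness after its values were seen, and was higher at 0.45 ± 0.11, a call that held in 4 of the 12 fits that left out a ground mouse. On chromosome 14 between 60 and 70 Mb, all 6 called genes were higher. The 6 are not separate signals, since Gm38378 and Gm37513, singled out after their values were seen, had the same values. Each had 67 reads over the GC_KO mice and 0 over the GC_WT mice. Entpd4 and Entpd4b, 2 copies of a Golgi nucleotidase gene, were higher at 0.68 ± 0.06 and 0.77 ± 0.06, with split reads in all 12 libraries. Gm16867 had 0 reads in all 6 GC_WT mice and 38 to 95 reads in each GC_KO mouse, at least 123-fold higher against a floor of 3 reads over the group. Gm27177 overlaps Entpd4b on the other strand, and whether reads were counted by strand is not given in the sources used here. Gm27177 had a median of 16.7 CPM in GC_KO and 0.0763 CPM in GC_WT. Gm7868 on chromosome 12, a segment with 5 of 35 genes called, had medians of 4.28 CPM in GC_KO and 0.114 CPM in GC_WT.

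Outside the segments the smallest adjusted p belonged to Gm3608, a pseudogene on chromosome 1, at 153 to 175 CPM in GC_KO and 4.75 to 6.71 CPM in GC_WT. Gm10693 on chromosome 7 was higher at 3.59 ± 0.20 with split reads in all libraries. The ferritin light chain copies Ftl1-ps1, annotated as protein coding, and Ftl2-ps, a processed pseudogene, moved apart, Ftl1-ps1 lower at -2.06 ± 0.27 and Ftl2-ps higher at 3.41 ± 0.85, and both share reads with other genes. The call of Ftl2-ps held in 1 of the 12 fits that left out a ground mouse. On chromosome 13 between 110 and 120 Mb, singled out after the values were seen, 4 of 42 tested genes were called. Tmem267 was lower at -1.35, and the 3 others, the entries named Nnt and D13Ertd608e, were higher in GC_KO. Capza1, an actin capping subunit in the chromosome 3 segment that also holds Gstm1, was lower at -1.23 ± 0.05, from a median of 303 to 126 CPM. Cd44, the hyaluronan receptor of activated lymphocytes and myeloid cells, was lower at -0.71 ± 0.06, with GC_WT at 233 to 313 CPM and GC_KO at 151 to 169 CPM. In flight the Cd44 value was -0.57, also called, and of the other 8 tissues 1 had it called lower and 1 higher.

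Within 10 Mb of Nfe2l2 on chromosome 2, 4 of 102 other tested genes were called, or 3.92%, against 0.54% of genes farther along the chromosome and 1.14% on other chromosomes. All 4 were within 5 Mb. E030042O20Rik, which starts 0.1 kb from the start of Nfe2l2 on the other strand, was lower at -1.59 ± 0.29, with medians of 1.21 and 0.440 CPM. Pdk1, the kinase that turns off pyruvate dehydrogenase, lies 3772 kb away and was lower at -0.49 ± 0.08, with 75.4 to 81.9 CPM in GC_WT and 50.8 to 63.0 CPM in GC_KO. Pdk1 was tested in all 8 other tissues and called in none of them. Rbm45 was lower at -0.32 ± 0.06. Agps, of ether lipid synthesis, was higher at 0.20 ± 0.05 with overlapping groups, a call that held in 2 of 12 fits that left out a ground mouse.

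The ground differences were looked up in the flight mice, which share no animal with the ground groups. Of the 182 called genes, 180 (98.9%) had the same sign between FL_KO and FL_WT, where 61.2% of all tested genes did. The flight comparison called 187 genes (1.16%), and 114 genes were called in the same direction in both, which is 62.6% of the ground calls and 61.0% of the flight calls. For 118 of the ground calls the flight groups did not overlap either. The exceptions in sign were Adamts15 and Rnf13, at log2 values of -0.05 and 0.01 in flight. The interaction of genotype and flight was called for 0 genes by edgeR, DESeq2 and limma, and in edgeR 643 genes, 16 of them ground calls, had an unadjusted p under 0.05. Cd177 was called on the ground at 2.41 ± 0.35 and had 0.65 in flight, a difference that the interaction did not pass.

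**Figure D4:**
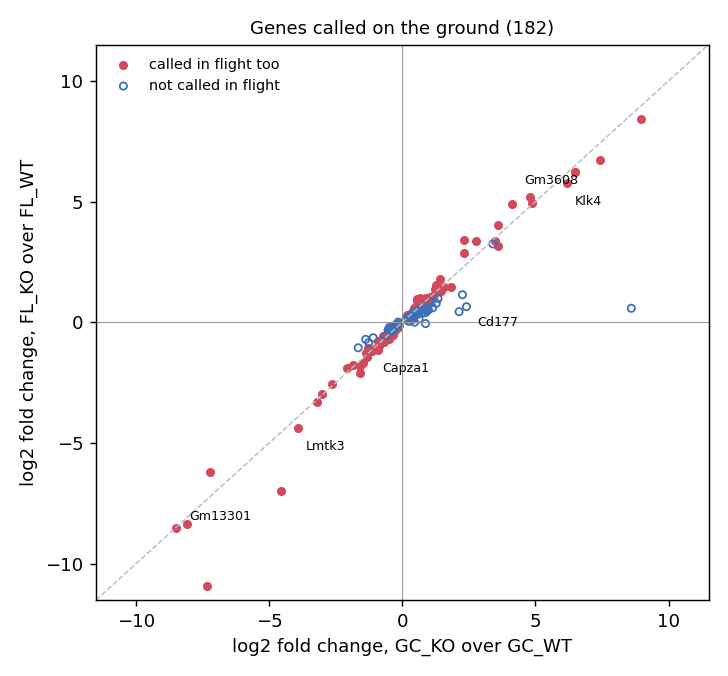
Log2 fold change of KO over WT on the ground (x axis) and in flight (y axis) for the 182 genes called on the ground, with the line of equal values dashed. Filled points are the 114 genes called in flight too, and 180 of 182 points share their sign, with Rsc1a1 as the far point to the right of the line at 8.60 on the ground and 0.58 in flight.

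Rsc1a1, singled out after its values were seen, had 0 reads in all 6 GC_WT mice and 22 to 74 reads in GC_KO, at least 95.7-fold higher against a floor of 3 reads over the group. It shared reads with other genes in 6 of the 12 libraries and kept its call in 2 of the 12 fits that left out a ground mouse.

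The same ground mice gave libraries of 8 other tissues, so the tissues are not independent animals. Of the 182 spleen calls, 104 were called in the same direction in at least 1 other tissue, 31 in at least 4 and 13 in all 8. The 13 were Nfe2l2, Capza1, Cdc42bpg, Wdfy1, Tmem267, Entpd4, Entpd4b, Gm3608, Gm7868, Gm13301, Gm17167, Gm5859 and Gm27177. Capza1, for example, had -1.23 in spleen and -1.07 to -1.34 elsewhere, and Gm3608 had 4.87 in spleen and 4.098 to 5.002 elsewhere. Gstm1 was called lower in 7 other tissues, Gsta3 in 5, Gsto1 in 4, and Mgst1, Osgin1 and Btrc in 2 each. Acadl, the long-chain acyl-CoA dehydrogenase of fatty acid oxidation, was higher in spleen at 0.58 ± 0.09, with GC_WT at 62.3 to 74.3 CPM and GC_KO at 84.8 to 114 CPM, and was called lower in 4 other tissues. Whether Acadl differed between tissues was not tested as such. A total of 78 spleen calls were called in the same direction in no other tissue. Only 131 (liver) to 169 (temporal bone) of the 182 were tested in any one of the other tissues, and kidney and mandible had 3 mice of each genotype. The 78 are therefore not shown to be particular to spleen.

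Lists of spleen cell types and related tissues held 257 tested genes, and 2 were called higher and 1 lower, a share near the 1.13% called among all genes tested. An unadjusted p under 0.05 was found for 82 of the 257, a larger share than among all genes tested. Counts of unadjusted p under 0.05 in these and the following lists stand beside 10.8% of all genes tested. In bulk spleen, more cells of a type and more RNA per cell cannot be told apart. Neutrophil and myeloid precursor genes had a median log2 fold change of 0.95, with 17 of 19 above 0, and only Cd177, a neutrophil surface protein, was called. Cd177 ran from 0.735 to 2.40 CPM in GC_WT and from 4.51 to 14.4 CPM in GC_KO. The summed level of this list had a lowest value of 139, a median of 227 and a highest value of 996 TPM in GC_WT, and 330, 508 and 1181 TPM in GC_KO. The highest GC_WT value came from mouse 5, with the next at 322 TPM. Without that mouse 13 list members were called, in a fit that called 197 genes in all. That fit was singled out after the values were seen, and leaving out the highest GC_WT mouse by itself widens the difference. Megakaryocyte and platelet genes had a median of 0.78, with 18 of 20 above 0 and 18 at an unadjusted p under 0.05, and 0 were called by edgeR or limma, where DESeq2 called 7. Itga2b and Pf4, platelet genes, were at 0.84 ± 0.24 and 0.84 ± 0.24 with adjusted p of 0.11 and 0.098. The list's highest GC_KO level was 1354 TPM in mouse 4, and the other 5 were at 449 to 692 TPM.

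Erythroid genes also had a median of 0.78 with all 34 tested above 0, 13 at an unadjusted p under 0.05 and 0 called by edgeR or limma, where DESeq2 called 2. Their summed level spread widely within both genotypes, from 6957 to 26110 TPM in GC_WT and from 8417 to 39280 TPM in GC_KO, and the groups overlapped. Without GC_WT mouse 8, 8 erythroid genes were called, in a fit that called 196 genes in all. That fit too was singled out after the values were seen. Mouse 8 had the highest mean log2 CPM of the list in GC_WT, at 5.47, so leaving it out widens the difference. In flight the erythroid median was 0.08, that of neutrophil and myeloid precursor genes 0.65 and that of megakaryocyte and platelet genes 0.46. The flight median of the cell cycle genes was 0.11. Genes of the cell cycle had a median of 0.26 with 27 of 27 above 0, and interferon-stimulated genes one of 0.36 with 28 of 28 above 0, against -0.02 in flight. In these lists 14 and 7 genes had an unadjusted p under 0.05, and 0 were called by edgeR, DESeq2 or limma. Members of a list were measured in the same mice, so they are not separate observations. Summed cell cycle levels overlapped, at 734.6 to 915.5 TPM in GC_WT and 873.4 to 1161 TPM in GC_KO. Summed interferon-stimulated levels also overlapped, at 1082 to 1326 TPM in GC_WT and 1248 to 1637 TPM in GC_KO. The highest GC_KO values were those of mice 1 and 12, at 1636 and 1637 TPM. With the erythroid level of each library as a covariate, 171 genes were called in all, 142 of them shared with the 182.

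**Figure D5:**
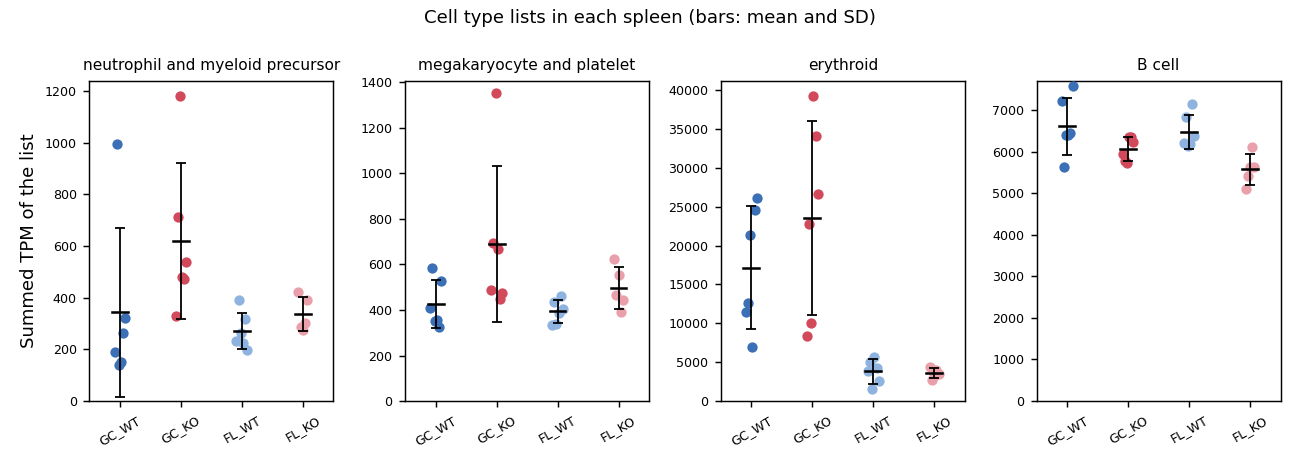
Summed TPM (linear axes from 0) of 4 cell type lists in each spleen of the 4 groups, points for mice and bars for mean and SD. The neutrophil list shows GC_WT mouse 5 at 996 among the GC_WT mice, the erythroid list spreads in both ground groups, and B cell levels lie between 5624 and 7572 in GC_WT and between 5729 and 6354 in GC_KO.

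B cell genes leaned the other way, with 20 of 21 below 0, a median of -0.11, 8 at an unadjusted p under 0.05 and 0 called by edgeR or limma, where DESeq2 called 1. Their median in flight was -0.15. Of 23 genes of antigen presentation by MHC class I and II, 4 were called lower and 0 higher by edgeR, beside 0.538% and 0.588% of all genes tested. DESeq2 called 8 in all and limma 2, and 13 had an unadjusted p under 0.05, against 10.8% of all genes tested. H2-Q6 and H2-Q7, class I genes of near-identical sequence with split reads in all 12 libraries, were lower at -0.53 ± 0.10 and -0.48 ± 0.10, without overlap. In flight neither was called, at -0.32 for H2-Q6 and -0.20 for H2-Q7, and the H2-Q7 groups overlapped. The class II genes H2-DMb2 and H2-Eb1 were lower at -0.17 ± 0.04 and -0.16 ± 0.04, with groups that overlapped. Their calls held in 9 and 4 of the 12 fits that left out a ground mouse, and neither held with limma or with the ground libraries alone. In flight H2-Eb1 was called lower, at -0.19, and H2-DMb2 was not called, at -0.14. Wdfy4, needed by dendritic cells for cross-presentation, was lower at -0.16 ± 0.03. Fcgr4, an activating IgG receptor of monocytes and macrophages, was higher at 0.89 ± 0.21, with medians of 20.6 and 37.4 CPM and a call that held in 5 of 12 fits that left out a ground mouse. The cytokine Il10 was higher at 1.28 ± 0.31 at levels of 0.602 to 0.809 CPM in GC_WT and 0.978 to 2.51 CPM in GC_KO. Its call held in 3 of 12 such fits. Fos, an immediate early gene, was higher at 1.07 ± 0.22, with medians of 3.57 and 7.05 CPM and overlapping groups.

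No gene was called in the lists of stress programmes. The integrated stress response, heat shock and chaperone genes, the proteasome, the circadian clock, and glucocorticoid and metallothionein genes had 0 called members each by edgeR, DESeq2 and limma, with medians between 0.04 and 0.27. They had 2, 1, 1, 0 and 1 genes at an unadjusted p under 0.05 in that order. Members above 0 were 13 of 19, 14 of 20, 27 of 32, 11 of 18 and 11 of 12. Red pulp macrophage genes had a median of -0.04 with 0 of 23 called by edgeR, DESeq2 or limma and 2 at an unadjusted p under 0.05.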

How the data were processed

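Poly(A) RNA of spleen was made into strand-specific libraries and sequenced as single reads. According to the paper's methods and the labels, the authors aligned reads to mm10 with STAR 2.6.1 and estimated gene levels with RSEM 1.3.1. The deposited table gives expected counts, which are estimates that split reads shared by genes, and TPM, scaled by the authors to 1 sum per library, for 54752 genes. Deposited FPKM columns were not used. Positions came from GENCODE vM21. Expected counts were rounded and tested with edgeR 4.0.16 (quasi-likelihood, TMM, filterByExpr, Benjamini-Hochberg adjustment) in 1 fit of 4 spleen groups and 23 libraries. FL_KO mouse 4, which the study left out of most analyses, was not used. As alternatives, the contrast was refitted with DESeq2 1.42.0 and with limma 3.58.1 (log2 of TPM + 1, only genes reaching a group mean of 5 TPM), with RLE factors, no filter, other sample sets, an erythroid covariate and leaving out each mouse. Fits were tested on simulated data. The members and the 36 gene lists were chosen with earlier results of these data known.

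Named genes were Nfe2l2, all called members of the 9 Nrf2 lists, the 12 higher and 12 lower with the smallest adjusted p and a mean TPM of at least 1, the 6 higher and 6 lower with the largest changes, a mean TPM of at least 5 and no overlap, all called within 10 Mb of Nfe2l2, and up to 4 called members of each other list. Intervals and floors cover counting error only.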

Additional observations from a re-analysis of the deposited data

Results flagged for a closer look

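Nfe2l2 fell less in spleen than in 6 other tissues of the same ground mice. The test of the difference between tissues gave an exact permutation p of 0.00216 against cerebrum, liver, thymus, temporal bone, epididymal white fat and brown fat alike, the smallest that 6 against 6 mice allow.

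In 10 of 140 groups of ground mice examined, 1 mouse lay far from the other 5, where chance gives about 1 group in 20 for smoothly spread values. That rate does not hold for groups with almost no reads, where a few reads in 1 mouse are enough. For Gm10693 it was GC_KO mouse 2 at 32.5 CPM, with the next at 19.8. For Klk4 it was GC_WT mouse 3 at 0.301 CPM, for Gm13301 GC_KO mouse 2 at 0.252 CPM and for Gm10600 GC_KO mouse 1 at 0.0752 CPM, each in the group with almost no reads. For Gm31597 GC_KO mouse 1 was lowest, at 0 CPM. For Pdk1 it was GC_WT mouse 7 at 75.4 CPM, with the next at 80.5. Summed TPM placed GC_WT mouse 5 at 996 for neutrophil and myeloid precursor genes, GC_KO mouse 4 at 1350 for megakaryocyte and platelet genes, with the next at 692, GC_WT mouse 8 at 2850 for stroma, vessel and sinus genes, and GC_KO mouse 9 at 1160 for proliferation genes.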

How the results depend on the processing

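Nfe2l2 stayed called in every setting run, at log2 values between -0.27 and -0.23. The ground comparison called 182 genes, against 295 with DESeq2 (161 higher, 134 lower, 176 of them shared) and 89 with limma (41 higher, 48 lower, 85 shared). Leaving out each ground mouse gave 146 to 200 calls, and the other settings gave 141 to 189. Of the 182 calls, 129 had whole counts in all 12 ground libraries. The flight comparison called 187 genes, against 318 with DESeq2 (140 higher, 178 lower) and 193 with limma (36 higher, 157 lower). Members of the Nrf2 lists called higher were 0, but 2 with DESeq2, 1 with the 12 ground libraries alone and 0 to 2 when each mouse was left out (2 without GC_WT mouse 5 or 8, 1 without GC_KO mouse 12). Called members of the cell lists were 3, but 15 with DESeq2, 1 with limma, 1 with the ground libraries alone, 9 with the erythroid covariate and 2 to 20 when each mouse was left out. That count was 20 without GC_WT mouse 5, 12 without GC_WT mouse 8, 8 without GC_KO mouse 1 and 6 without GC_KO mouse 11 or 12. Genes called near Nfe2l2 were 4, but 7 with DESeq2 and 2 with limma. The cause of these shifts was not tested. Segments of 5 and 20 Mb, added after seeing the data, held 37.9% and 54.4% of the calls in place of 48.4%. Of the 50 named genes, 8 lost their call when some mouse was left out, Osgin1, Ftl2-ps, Agps, Il10, Wdfy4, Fcgr4, H2-DMb2 and H2-Eb1, and H2-Q7 lost it with the ground libraries alone.

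With mouse number as a replicate block the interaction called 0 genes, as it did without. By the design of the study, GC and FL mice were separate animals that share only a number. Same-numbered mice of a genotype deviated together by r of -0.07 to 0.12 in WT and 0.01 to 0.17 in KO. The ground genotypes share no number, so no paired fit of that contrast could be made.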
